A study of Xenopus laevis with 30 samples.

Results

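The entry c3.L is the gene for complement component C3 of the frog Xenopus laevis, and 1 of the 49109 entries counted in animal cap explants that had been steered towards neural crest. It was chosen with its difference between explants with and without a morpholino against Sf3b4 already known, so the comparison of those explants with their controls is given for c3.L as a description, with no test. The crest genes sox10.S, foxd3.S and snai2.L are set beside it as context. X. laevis is allotetraploid and names its gene copies L and S. The tables and the reference gene table (assembly Xenopus_laevis_v10.1, used for names only) each hold 1 entry named c3, with gene ID 398666.

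Every embryo had received, at the 2-cell stage, mRNAs for noggin, which blocks BMP ligands, and for wnt8, a Wnt ligand; the pairing turns cap ectoderm into neural crest progenitors. Control explants carried these mRNAs alone and are called NW. The other explants carried the Sf3b4MO antisense morpholino as well and are called NWS; Sf3b4 is a subunit of the SF3b complex, which takes part in splicing. Caps were cut at stage 8 to 9 and cultured for 8 hours, and single explants were homogenized for RNA, so every value comes from an explant without the surrounding embryo. Ribosomal RNA was removed before sequencing in the depleted libraries and kept in the undepleted ones, and each of the 4 groups has 3 libraries. The labels call them biological replicates, although the series' design text speaks of either 2 or 3 for each condition.

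C3 is the central protein of the complement cascade. Convertases cut it into C3b, which is bound to surfaces through a thioester, and C3a, a small soluble fragment that signals through the receptor C3ar1. In Xenopus, migrating cranial neural crest cells are known to make C3a and its receptor and to draw one another together through them, a behaviour called co-attraction.

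Depth outside a few entries was low and uneven. With depletion the libraries held 351902 to 3570364 counts in total, and without it 3499960 to 4339788, but LOC108705792 and ccdc50.L took 19.3% to 88.3% and 48.8% to 95.2% of them. Leaving aside the 5 dominant entries, each over 0.5% of some library, 112762 to 2803732 counts remained with depletion and 87172 to 2042925 without. NW library 3 was the deepest and NW library 2 the shallowest NW library in both preparations. Crest genes of the controls were uneven too, to differing degrees. The gene sox10.S, for a transcription factor that defines neural crest, had 195, 3 and 1997 counts in depleted NW libraries 1, 2 and 3. In the undepleted ones it had 250, 1 and 1516. Per 10000 counts outside the dominant entries, that was 3.51, 0.266 and 7.12 with depletion and 5.53, 0.105 and 7.42 without. On that scale snai2.L took 4.44, 0.532 and 8.18, and 8.20, 2.42 and 10.6. The gene foxd3.S took 0.774, 0.621 and 1.25, and 0.774, 0.949 and 1.84, with 7 and 9 counts in the libraries numbered 2.

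In the depleted libraries c3.L stood at 49.16, 22.98 and 114.86 FPKM in NW libraries 1, 2 and 3, and at 119.53, 121.94 and 118.84 FPKM in the NWS libraries (FPKM is the authors' level per length of the gene, scaled by size factors). All NWS libraries were at nearly one level, while NW library 3 came close to that level and the other NW libraries lay far below it. The means were 62.3 ± 47.3 FPKM in NW and 120 ± 1.63 FPKM in NWS (SD, n = 3 each). On FPKM the groups did not overlap, which held in this direction for 5% of the 6585 entries tested. The underlying counts of c3.L were 554, 51 and 7746 in NW and 332, 505 and 703 in NWS. Counting error alone put the 51 counts of NW library 2 between 38.0 and 67.1 (exact Poisson interval, 95%).

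The undepleted libraries gave the same order. There c3.L stood at 12.2, 7.04 and 29.91 FPKM in NW libraries 1, 2 and 3, and at 35.82, 40.57 and 38.01 FPKM in NWS, with 349, 42 and 4830 counts and 927, 242 and 835 counts. NW library 3 was again the highest control and NW library 2 the lowest, and no NW library reached the NWS range. The means were 16.4 ± 12 and 38.1 ± 2.38 FPKM (SD, n = 3 each), and 4.9% of the 6284 entries tested were likewise higher in every NWS library. Libraries with the same group and number deviated together between the preparations over all entries, so the preparations are not independent repeats. In explant RNA, fewer cells that make a transcript and less transcript per cell cannot be told apart.

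**Figure D1:**
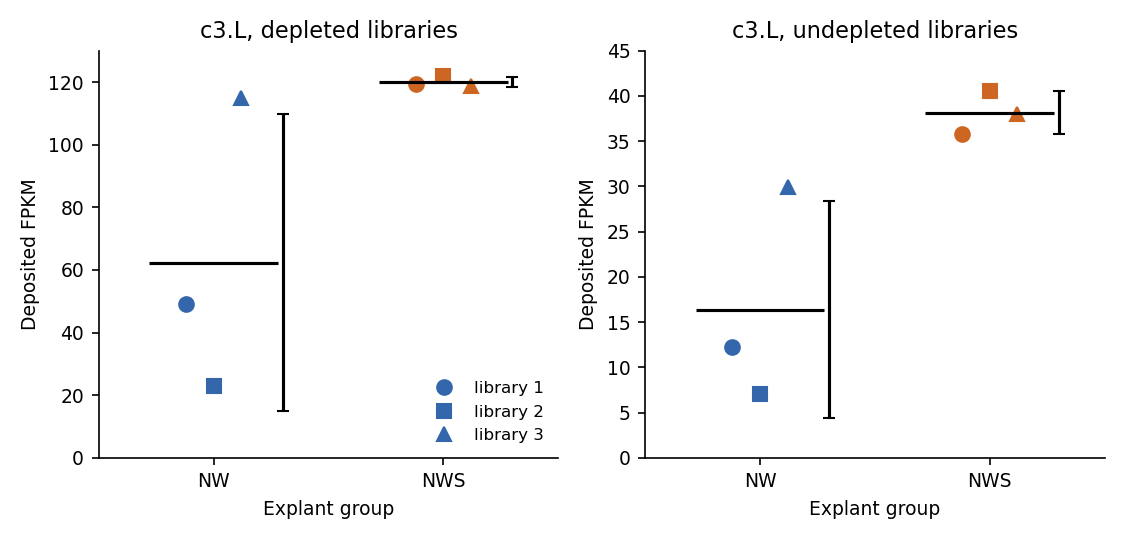
Level of c3.L (deposited FPKM, linear axis from 0) in each library, by explant group and preparation; marker shapes give the library number, horizontal lines the mean and bars the SD of 3 libraries. The depleted NWS libraries sit between 118.84 and 121.94 FPKM, whereas the depleted NW libraries spread from 22.98 to 114.86 FPKM.

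Among all entries ranked by FPKM within a library, c3.L was a high-ranking gene. In the depleted libraries it ranked 250, 738 and 53 in NW and 75, 56 and 64 in NWS, where rank 1 is the highest level. Without depletion the ranks were 349, 666 and 85 in NW and 87, 44 and 63 in NWS. The gene was therefore among the 100 highest entries in every NWS library and, of the NW libraries, in number 3 of each preparation.

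The gap between NW library 3 and NWS depended on the scale. As CPM, computed here with library sizes normalised by TMM, c3.L was at 277, 129 and 691 in depleted NW and at 651, 724 and 647 in depleted NWS, so NW library 3 lay above 2 of the NWS libraries and the groups overlapped; 4.53% of entries tested were higher in every NWS library on that scale. On the same scale the undepleted groups did not overlap, with NW at 63.8, 38.6 and 178 CPM and NWS at 187, 221 and 206 CPM; 4.25% of entries tested were also higher in every NWS library there. As a share of the counts outside the 5 dominant entries, c3.L took 9.97, 4.52 and 27.6 per 10000 in depleted NW and 26.1, 24.9 and 25.2 per 10000 in depleted NWS. The undepleted shares were 7.71, 4.43 and 23.6 per 10000 in NW and 24.8, 27.8 and 25.5 per 10000 in NWS. Exact binomial intervals (95%), which cover counting error only, were 3.37 to 5.95 per 10000 for depleted NW library 2, 27.0 to 28.2 per 10000 for depleted NW library 3 and 23.4 to 29.1 per 10000 for depleted NWS library 1. NW library 3 thus lay within the interval of that NWS library.

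Within NW the level of c3.L followed depth, since library 2 had the fewest counts outside the dominant entries and the lowest c3.L, and library 3 the most of both. Over the NWS libraries the same depth ran from 127172 to 278743 counts (depleted) and from 87172 to 373612 counts (undepleted) with c3.L nearly level. The part of depth in the difference was not tested.

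The fitted log2 fold change of c3.L, NWS against NW, was 0.88 ± 0.66 (SE) with depletion and 1.12 ± 0.63 without it. The median over all entries tested was -0.03 and -0.04. Counted from the highest fold change, c3.L ranked 1028 of 6585 entries with depletion and 518 of 6284 without it, so many entries rose more. Without NW library 3 the log2 fold change was 1.75 (depleted) and 2.04 (undepleted). Set against the NW library of the same number, NWS differed by 1.23, 2.48 and -0.09 (log2 CPM; numbers 1, 2 and 3) with depletion and by 1.55, 2.51 and 0.21 without it. The difference was thus greatest at number 2, whose NW libraries had 51 and 42 counts of c3.L, and smallest at number 3. Leaving out both libraries numbered 2 lowered it to 0.42 and 0.75.

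The levels of c3.L were more even in NWS than in NW. Its SD over 3 libraries on the log2 CPM scale was 1.21 in NW and 0.0906 in NWS with depletion, and 1.12 in NW and 0.123 in NWS without it. Of the 200 entries tested that were nearest to c3.L in mean level, 3 had a smaller SD in NWS in the depleted libraries and 3 in the undepleted libraries, against a median SD of 0.552 and 0.481. In NW, 178 and 167 of the 200 entries had a smaller SD than c3.L, with medians of 0.686 in each preparation. These shares are a description, with no test.

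**Figure D2:**
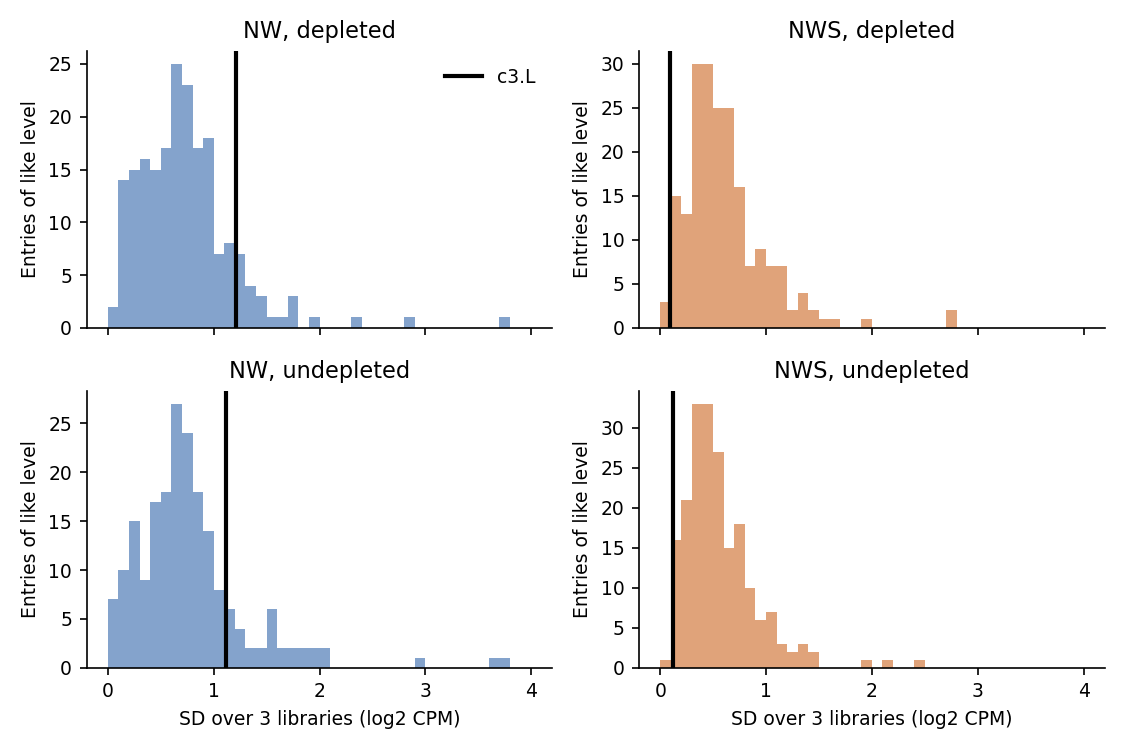
Spread within groups (SD over 3 libraries, log2 CPM) of the 200 entries nearest to c3.L in mean level, by group and preparation, as histograms of entry counts with c3.L as a black line. The line lies in the lower tail in NWS (0.0906 and 0.123) and in the upper part in NW (1.21 and 1.12).

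The crest genes were at or near 0 in NWS libraries 2 and 3, apart from snai2.L, and nearer to the controls in NWS library 1. In the depleted libraries sox10.S was at 15.37, 1.2 and 26.31 FPKM in NW and at 10.24, 0 and 0 FPKM in NWS, and without depletion at 7.76, 0.15 and 8.34 against 2.23, 0 and 0 FPKM. The NWS libraries numbered 2 and 3 had no sox10.S count in either preparation, though c3.L was at full level in them, and NWS library 1 kept sox10.S, so the groups overlapped. The gene foxd3.S, for a forkhead factor of early crest, was at 12.37, 10.22 and 16.87 against 3.5, 0 and 0 FPKM with depletion, and at 3.96, 4.89 and 7.53 against 2.5, 0 and 0.15 FPKM without it. These groups did not overlap, and 4.12% and 3.76% of entries tested were lower in every NWS library on the CPM scale. The gene snai2.L, for the zinc finger factor Slug, was at 63.29, 7.81 and 98.19 against 70.7, 12.55 and 12.69 FPKM with depletion, and at 37.44, 11.13 and 38.68 against 27.45, 2.42 and 2.76 FPKM without it. Its groups overlapped in both preparations, with NWS library 1 in the range of the controls.

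None of these crest genes passed the test (edgeR quasi-likelihood, Benjamini-Hochberg adjusted over all entries, adjusted p under 0.05), which called 0% of entries with depletion and 0.0159% without it. Their log2 fold changes were -2.27, -3.87 and -0.94 with depletion and -2.84, -2.51 and -1.48 without it, in the order sox10.S, foxd3.S and snai2.L, with edgeR adjusted p from 0.932 to 1.00. The other copy, foxd3.L, reached 775 counts against 375 for foxd3.S, and its log2 fold changes were smaller. They were -0.95 ± 0.95 (SE) with depletion and -0.78 ± 0.81 without it. With both copies summed, foxd3 was at -1.43 with depletion. The unadjusted p was under 0.05 for foxd3.S in both preparations and for sox10.S without depletion. Neither DESeq2 nor limma-voom called any of the 3 crest genes. With the library number as a block, sox10.S passed in the undepleted libraries at a log2 fold change of -4.16 and an edgeR adjusted p of 0.0126; that fit called 0.223% of entries, and 0.197% with depletion. NWS library 1 weighed on these values. Without it snai2.L was at -2.21 (depleted) and -3.50 (undepleted, which passed), and foxd3.S was at -5.56 (undepleted). Without it sox10.S passed in both preparations, with no count left in NWS. That library held every sox10.S count of NWS, so this pass reflects which library was left out and is not evidence of a difference. With any other library left out, where the gene could be tested, sox10.S ran from -2.85 to -1.41 and from -3.32 to -2.23, foxd3.S from -4.07 to -3.13 and from -2.74 to -1.96, and snai2.L from -1.49 to -0.22 and from -1.80 to -0.98, all still below 0. Among all entries tested, 3193 were higher in NWS and 3392 lower with depletion, and 3013 were higher and 3271 lower without it. Over a list of 25 crest symbols, 10 of 36 entries tested with depletion were higher and 26 lower (median log2 fold change -0.69), and 9 were higher and 27 lower without it, with a median of -0.88. None of them passed; with the block, id3.L, id3.S and sox5.L (LOC108710702) passed with depletion, and id3.L and sox10.S without it, all lower in NWS.

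**Figure D3:**
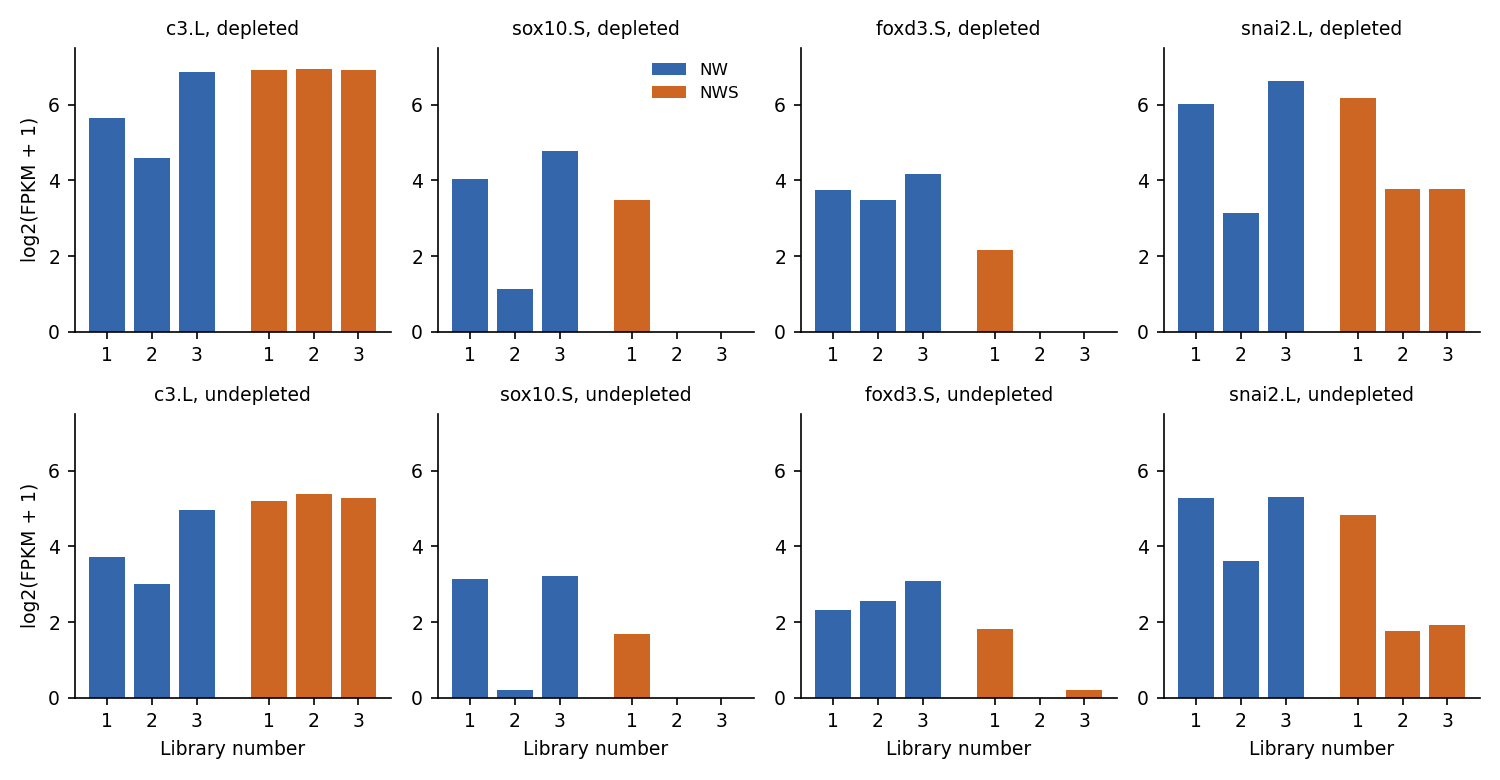
Levels of c3.L, sox10.S, foxd3.S and snai2.L as log2(FPKM + 1) in each library, NW in blue and NWS in orange, depleted libraries in the top row and undepleted libraries in the bottom row; an absent bar is a value of 0. The bars of c3.L are nearly equal in all NWS libraries, whereas sox10.S has no bar in NWS libraries 2 and 3.

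Per length, c3.L exceeded the summed crest genes in all NWS libraries and, among the controls, in depleted NW library 2 alone. The ratio of c3.L to the summed FPKM of the 3 crest genes was 0.540, 1.20 and 0.812 in depleted NW and 1.42, 9.72 and 9.36 in depleted NWS. Undepleted libraries gave 0.248, 0.435 and 0.548 in NW and 1.11, 16.8 and 13.1 in NWS. The groups did not overlap in either preparation, and NWS library 1, which kept crest transcripts, was the NWS library closest to the controls. As CPM they did not overlap either, but with depletion they nearly met, at 3.19 in NW library 2 and 3.22 in NWS library 1. Without depletion the CPM ratio was at most 1.27 in NW and at least 2.80 in NWS. As c3.L was chosen with its own difference known, this separation is a description. The share of other entries whose ratio to these crest genes separates the groups was not computed. On FPKM the mean log2 ratio was higher in NWS by 2.65 with depletion and by 4.0 without it. The summed counts of the crest genes behind it were as low as 5 in undepleted NWS library 2 and 16 in depleted NW library 2.

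The preparations could be compared for c3.L by a test, because the gene was not chosen on that contrast. In a fit of all 12 libraries the log2 difference, undepleted minus depleted, was -0.25 ± 0.62 (SE; 95% interval -1.50 to 1.00) in NW and 0.09 ± 0.62 (95% interval -1.16 to 1.34) in NWS. Neither passed (edgeR adjusted p = 1), and the test called 0.0227% of entries in NW and 0% in NWS. That fit does not use the pairing of depleted and undepleted libraries with the same group and number. With these pairs as a block the log2 difference was -0.20 ± 0.27 (SE) in NW and 0.09 ± 0.27 in NWS, and again neither passed (edgeR adjusted p = 1.00 for both). In the fit without pairs the value in NW ran from -1.11 to 0.65 when each NW library was left out. It was 0.65 without depleted NW library 3 and 0.13 without undepleted NW library 2. Each of these fits leaves a library without its partner. The difference between NWS and NW itself was 0.34 ± 0.88 (SE) larger in log2 without depletion than with it, with a 95% interval of -1.43 to 2.11, also in the fit without pairs. FPKM values, and the CPM given for each preparation, were scaled within each table, so neither is compared between preparations.

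No difference in c3.L between library numbers passed the test. The edgeR F test of the number beside the group gave an adjusted p of 0.717 with depletion and 0.683 without it, and 0.0922 in a fit of all 12 libraries, and these fits called 0.744%, 1.08% and 7.11% of entries. The last fit counts both preparations of a number as separate libraries. By the same test sox10.S passed, with an edgeR adjusted p of 0.00283 and 0.000561. The adjusted p was 0.246 and 0.0803 for snai2.L and 0.928 and 0.846 for foxd3.S. The test fits a number difference shared by NW and NWS, and the labels do not say that numbers pair these groups. Depleted sox10.S was highest at number 3 in NW (178 CPM), where NWS had no count. An uneven level in NW alone, as c3.L had, is not what the test measures. That c3.L depends less on the number than sox10.S does was not tested.

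Most other complement entries were scarce beside c3.L. Of 47 complement symbols listed, 34 were found, as 42 entries: 14 had no count in any library, 16 peaked at 1 to 9 counts and 12 reached 10 counts. In the summed mean FPKM of all complement entries, c3.L held 60.5% in NW and 69.6% in NWS with depletion, and 51.9% and 75.7% without it. In each of the 4 groups the next highest was cfp.L. By library, the share of c3.L ran from 32.4% in undepleted NW library 2 to 84.6% in depleted NWS library 3. The other entries together exceeded c3.L in that NW library, in undepleted NW library 1 (share 45.9%) and in depleted NW library 2 (38.9%).

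Among the proteins that work on C3 in the alternative pathway, cfp.L encodes properdin, which stabilizes the C3 convertase, and cfb.L encodes factor B, its catalytic subunit. In the depleted NW libraries cfp.L was at 22.0, 48.0 and 60.6 CPM, against 128, 70.3 and 9.21 CPM in NWS. Without depletion NW had 16.4, 18.4 and 18.6 CPM of cfp.L and NWS had 27.2, 9.15 and 2.96 CPM. Unlike c3.L, it was spread out in NWS, with NWS library 1 the highest and library 3 the lowest, and in undepleted NW it was even. The log2 fold changes of cfp.L were 0.65 ± 0.80 (SE) and -0.42 ± 0.73. With depletion the mean level of cfb.L was 19.3 CPM in NW (SD 13.0, n = 3) and 14.8 CPM in NWS (SD 8.24, n = 3), and without it 4.02 CPM (SD 0.799) and 3.97 CPM (SD 0.952). Its log2 fold changes were -0.35 ± 1.01 (SE) and 0.01 ± 0.92. Factor B had at most 25 counts outside NW library 3, where it had 252 and 118. Factor D (cfd.L), the protease that activates factor B, reached 1 count at most.

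The regulator cfh.L, for factor H, which restrains the C3 convertase, shared the high NW library 3. Its levels were 6.49, 2.53 and 67.0 CPM in depleted NW and 35.3, 55.9 and 30.4 CPM in depleted NWS, and 1.83, 3.68 and 19.0 against 8.86, 6.41 and 7.40 CPM without depletion. In both preparations NW libraries 1 and 2 were below every NWS library and NW library 3 was above them, so the groups overlapped. Counts of cfh.L were 13, 1 and 751 against 18, 39 and 33 with depletion, and 10, 4 and 516 against 44, 7 and 30 without it. The undepleted order at number 2 thus rests on 4 against 7 counts. The log2 fold changes of cfh.L were 0.59 ± 0.91 (SE) and -0.16 ± 0.85. Without NW library 3 they were 3.02 and 1.59, resting on the few counts of NW libraries 1 and 2. Factor I (cfi.S), the protease that degrades C3b, reached 25 counts at most.

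The receptor for C3a, c3ar1.L, was near the floor of detection. It had 10, 9 and 57 counts in depleted NW against 0, 3 and 0 in depleted NWS, too few for the low-count filter, and 22, 1 and 27 against 19, 0 and 10 without depletion. A count of 0 allows up to 3 counts, which is 5.89 CPM in depleted NWS library 1 and 2.76 CPM in depleted NWS library 3, against 4.99, 22.7 and 5.08 CPM in depleted NW. A difference between NW libraries 1 and 3 and NWS library 1 was therefore not detectable at this depth. Depleted NWS library 2, with its 3 counts, was at 4.30 CPM, close to NW libraries 1 and 3. The log2 fold change without depletion was 0.17 ± 1.16 (SE). The integrin subunit itgax.L, part of a receptor for the C3 fragment iC3b, had at most 20 counts, and its log2 fold change without depletion was 2.72 ± 1.37 (SE).

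Downstream of C3, c9.L encodes the pore-forming protein of the membrane attack complex. It had 65, 0 and 169 counts in NW and 2, 0 and 7 in NWS with depletion, and 37, 0 and 148 against 9, 0 and 16 without it, with none in the libraries numbered 2. Its log2 fold changes were -2.20 ± 1.32 (SE) and -1.04 ± 1.12. The C5 entries LOC108698859 (c5.L) and LOC108698858 (c5.2.L) reached 33 and 40 counts, both in depleted NW library 3. Of the classical and lectin pathway, 15 entries were found, of which 8 had no count and c2.L, with up to 11 counts, was the only one to reach 10.

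Leaving c3.L aside, no complement entry passed the test of NWS against NW. With depletion 4 could be tested, 2 higher and 2 lower in NWS (median log2 fold change 0.12), and without depletion 6 could be tested, 3 higher and 3 lower with a median of -0.08. EdgeR's quasi-likelihood adjusted p was 0.999 for each of the 4 and 1.00 for each of the 6. None had an unadjusted p under 0.05, against 3.72% and 4.03% of all entries tested, and none was called by DESeq2 or limma-voom.

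**Figure D4:**
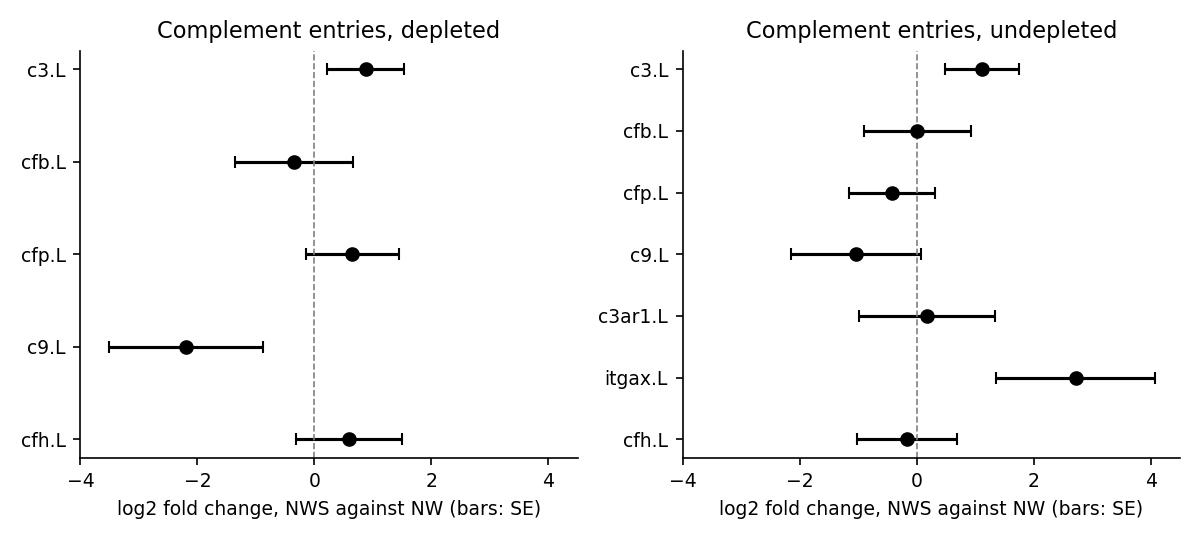
Log2 fold change of NWS against NW (points) with its standard error (bars) for each complement entry tested, in depleted and undepleted libraries. The entry c3.L, chosen on this contrast, is at 0.88 and 1.12, and the other entries lie on both sides of 0 with wider bars.

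Genes related to C3 by family or by its known roles were also read. Of the thioester relatives of C3, such as a2m and cd109, 5 entries were found, and their summed level was at most 5.99 CPM in any library. Of 23 entries for factors that regulate C3 transcription in mammals, 2 could be tested with depletion and 3 without, and none passed; cebpd.L, for C/EBP-delta, had log2 fold changes of 1.41 ± 1.18 and 1.01 ± 1.15, and rela.L, for an NF-kappa-B subunit, had -0.95 ± 1.02 and 1.62 ± 0.98 (SE). Of 14 entries for co-attraction and migration, 7 could be tested with depletion, of which 1 was higher and 6 lower in NWS, and 9 without depletion, of which 4 were higher and 5 lower. None passed the edgeR test. The split over all entries tested was 3193 higher and 3392 lower with depletion, and 3013 higher and 3271 lower without it. The N-cadherin entries cdh2.L and cdh2.S had log2 fold changes of -0.39 and -1.06 with depletion and -0.86 and -1.10 without it.

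Markers of other cells were read beside c3.L, and their part in its level was not tested. Myeloid markers, read because macrophages are a known source of C3, summed to at most 2.76 CPM over 11 entries in any library, and the entries for mpo, lyz and ptprc had no count at all. Endoderm markers summed to at most 25.5 CPM over 13 entries. Among them gata6.L and gata6.S reached 41 and 23 counts, and both a2m entries had at most 1 count. Epidermal markers (14 entries) summed to between 80.4 and 350 CPM in depleted NW libraries, 133 and 655 CPM in depleted NWS, 19.2 and 123 CPM in undepleted NW, and 37.0 and 179 CPM in undepleted NWS. Unlike these limits, the median epidermal sum was lower for NWS than for NW: 179 against 295 CPM (depleted), 48.5 against 87.4 CPM (undepleted). Of the 7 epidermal entries tested in each preparation, 5 were higher in NWS and 2 lower, with median log2 fold changes of 0.61 and 1.05, and none passed. Neural markers (11 entries) summed to between 273 and 460 CPM in depleted NW, 324 and 611 CPM in depleted NWS, 66.1 and 129 CPM in undepleted NW, and 76.1 and 156 CPM in undepleted NWS. By entry, 4 neural markers were higher in NWS and 3 lower with depletion (median log2 fold change 0.11), and 4 were higher and 4 lower without it (median -0.29); none passed. The 6 crest marker entries summed to 68.2 to 612 CPM (depleted NW), 26.7 to 308 CPM (depleted NWS), 41.4 to 218 CPM (undepleted NW) and 7.40 to 111 CPM (undepleted NWS), with overlap between the groups. The largest sums in any library were 313 CPM for mucous and secretory cells, 91.2 CPM for multiciliated cells and 90.4 CPM for mesoderm. For placode the largest was 25.8 CPM and for ionocytes 15.7 CPM. These maxima, and those of the myeloid and endoderm markers, were all in depleted libraries. As CPM were scaled within each preparation, they do not compare the preparations. No entry was matched to the hatching gland markers. Some other lists were matched in part: 8 of 10 epidermal, 4 of 5 mesoderm and 7 of 8 myeloid symbols were found.

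Entries that varied most like c3.L were ranked among the 1635 with a mean of at least 10 CPM in both preparations, by the lower of the Pearson correlations of log2 CPM over the 6 libraries of each. The 6 nearest were pnrc2.S (0.96), whose protein takes part in mRNA decapping, prpf8.S (0.92), a core splicing factor, fzd7.L (0.92), a Wnt receptor, znf281.L (0.90), a zinc finger factor, and cnot6l.S (0.89) and cnot6l.L (0.89), subunits of the CCR4-NOT deadenylase. The median over all entries was -0.30. The nearest, pnrc2.S, had 124, 37.9 and 419 CPM in the depleted NW libraries, against 261, 272 and 481 CPM in NWS, low like c3.L in NW library 2. Of the crest genes, sox10.S ranked 681 (-0.19) and snai2.L 865 (-0.33), and foxd3.S had too low a level to be ranked. The complement entry cfp.L ranked 922 (-0.37). For snai2.L and cfp.L these lower values are from the undepleted libraries. With depletion their correlations with c3.L were 0.37 and 0.13, so the preparations differed in sign. The 6 nearest entries and c3.L share their lowest value in NW library 2 of both preparations. That value rests on few counts. In the depleted and undepleted library it was 1 and 1 for fzd7.L, 2 and 0 for cnot6l.S, and 12 and 4 for znf281.L. It was 11 and 5 counts for cnot6l.L, 15 and 15 for pnrc2.S, and 30 and 23 for prpf8.S. Without the libraries numbered 2, or with Spearman's correlation, 0 of the 6 entries stayed among the nearest 6.

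**Figure D5:**
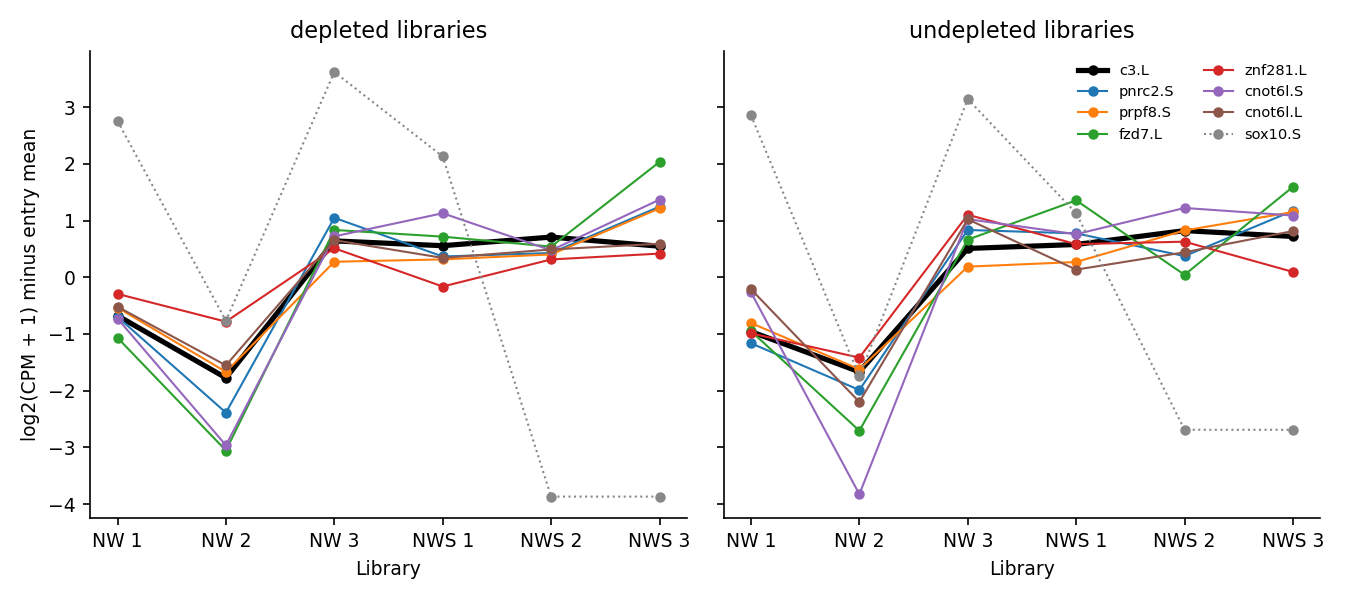
Level of c3.L (black), the 6 entries most like it (colours) and sox10.S (grey dotted) in each library, as log2(CPM + 1) minus the mean of the entry over 6 libraries. The entries most like c3.L are lowest in NW library 2 of both preparations, and sox10.S is lowest in NWS libraries 2 and 3.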

How the data were processed

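Total RNA of 12 libraries was analysed; 30 runs are lanes of these libraries. The tools named per the submitters' processing notes are STAR, featureCounts, bcl2fastq and DESeq2. For the genome build, the annotation and the handling of strand and of multiply matching reads: not given in the sources used here. Raw counts and FPKM, summed over lanes, were deposited by the authors as separate tables for either preparation. In the deposited tables FPKM equals the count per length scaled by median-of-ratios size factors, checked to within 0.0408%. Groups and library numbers follow the titles; for undepleted NWS the source names count replicates differently. Counts were fitted with edgeR 4.0.16 in R 4.3.3 (TMM, filterByExpr with a minimum count of 10, quasi-likelihood, group as the only term), with all entries in the fit. As alternatives limma 3.58.1 and DESeq2 1.42.0 were run. The fit was also run on simulated libraries that, unlike those here, did not deviate together by number. No result of that run is used here. P-values set a fitted difference against the spread between these libraries, which was estimated with information from all entries tested.

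CPM were computed here from the deposited counts. The gene, the lists and the tests were chosen with earlier results of these data known. Named entries are c3.L, the 3 crest genes, complement entries that pass the filter in either preparation and the 6 entries most like c3.L; other entries were named after their values were seen. Same-numbered NW and NWS libraries deviated together (correlations of 0.139, 0.248 and 0.155 with depletion, and 0.210, 0.244 and 0.131 without). For differing numbers the correlations ran from -0.215 to 0.0657. Deviations were taken from the mean of 3 libraries, which ties these values to one another, and the part of depth was not tested. Numbers were taken to pair libraries in the replicate block, the test of the number and the differences by number, which the labels do not say. The main fit, with group as the only term, did not use this pairing. Figures used Python 3.11.15 with matplotlib 3.10.9.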

Additional observations from a re-analysis of the deposited data

How the results depend on the processing

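Of the values for c3.L, the log2 fold change of NWS against NW stayed above 0 under every alternative run. It ranged from 0.44 to 1.75 (depleted) and 0.77 to 2.04 (undepleted) when each library was left out, and from 0.42 to 1.20 and 0.75 to 1.41 under scalings, filters, tools, the replicate block and the other alternatives. With the library number as a replicate block it was 1.20 ± 0.52 and 1.41 ± 0.55 (SE). The log2 ratio of c3.L to the crest genes ranged from 2.17 to 3.56 and 3.29 to 5.25 when each library was left out, a check added after the values were seen. The preparation contrast in NW ran from -1.11 to 0.65 and that in NWS from 0.04 to 0.14 in the fit without pairs. Leaving out each library, sox10.S ran from -11.21 to -1.41 and -11.05 to -2.23, foxd3.S from -9.18 to -3.13 and -5.56 to -1.96, and snai2.L from -2.21 to -0.22 and -3.50 to -0.98; the lowest of each was without NWS library 1, where sox10.S and depleted foxd3.S have no NWS count and the fitted value depends on the prior count. Depleted foxd3.S did not pass the low-count filter without NW library 1 or 3. Without NWS library 1, sox10.S passed with an edgeR adjusted p of 8.95e-05 (depleted) and 2.50e-05 (undepleted), which reflects the library left out. Undepleted snai2.L passed there with an edgeR adjusted p of 0.0437. Over all alternatives the adjusted p of the crest genes ran up to 1.00. No complement entry was called under any alternative, but signs of small fold changes turned and the cause was not tested. With depletion, cfb.L was 0.40 and cfh.L -0.18 without both libraries numbered 2, and cfp.L was -0.20 by limma-voom; without it, cfb.L was -0.021 with no filter, and cfh.L was 0.035 by limma-voom and 0.51 with the replicate block. When each library was left out, depleted cfb.L ran from -0.81 to 0.044, cfh.L from 0.09 to 3.02 and cfp.L from -0.10 to 1.16, and undepleted c3ar1.L from -0.40 to 1.22, cfb.L from -0.20 to 0.18, cfh.L from -0.63 to 1.59 and cfp.L from -1.62 to 0.10. Entries called numbered 0 and 1, against 13 and 14 with the replicate block, 8 and 9 by DESeq2, 2 and 1 by limma-voom and 20 and 29 with no filter; leaving out 1 library gave 0 to 24 and 1 to 26. The planned comparison with a c3.S entry was not run. The NW libraries numbered 2 rest on 51 and 42 counts of c3.L.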
